A study of Mus musculus with 6 samples.

Results

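Il9r encodes the ligand-binding chain of the receptor for interleukin 9, and it lies on mouse chromosome 11 beside the alpha globin genes. Described here are Il9r and 6 genes around it, Snrnp25, Rhbdf1, Mpg, Nprl3, Nsg2 and Cpeb4, among 22098 gene names with a value in RPKM, that is, reads per kilobase after scaling to library size. Il9r, Snrnp25 and Rhbdf1 were chosen by their RPKM in these same libraries, in which they were raised in mutant cells, so their values are given as a description with no test. Mpg, Nprl3, Nsg2 and Cpeb4 were chosen by their place beside Il9r, and their differences were tested.

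The IL-9 receptor chain pairs with the common gamma chain, encoded by Il2rg, which is also part of the receptors for interleukins 2, 4, 7, 15 and 21. Binding of the cytokine activates the kinases JAK1 and JAK3, which phosphorylate STAT proteins, and IL-9 is best known for its action on mast cells, T cells and some B cells. Ikaros, the product of Ikzf1, is a transcription factor with zinc fingers that lymphocytes need, and its N-terminal fingers contact DNA. In red cell precursors, introns of Nprl3 hold enhancers of the alpha globin genes, so this stretch of chromosome is a standard example of genes that share a neighbourhood with strong regulatory elements.

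The cells were B cells with IgM at their surface, sorted from the marrow of 6-week-old C57BL/6 mice. The ZnF1 mutant (Ikaros-ZnF1-/-) lacks Ikaros finger 1, the ZnF4 mutant (Ikaros-ZnF4-/-) lacks finger 4, and both were set against wild type. Each genotype had 2 libraries of poly(A)-enriched RNA, labelled replicate 1 and replicate 2. The labels do not say that replicates came from separate animals, so a p-value covers no more than the spread among these libraries, which may in part be technical.

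All 10 B cell markers reached at least 1 RPKM in every library, and the B cell receptor gene Cd79b had 1604 to 2227 RPKM. ZnF1 replicate 2 stood apart in genes of other marrow cells. Its 19 measured granulocyte and monocyte markers summed to 8592 RPKM, against 1581 in ZnF1 replicate 1, 1944 and 2152 in the ZnF4 libraries and 509 and 816 in wild type. Its 18 measured erythroid markers summed to 1130 RPKM, against 174 in ZnF1 replicate 1, 285 and 418 in the ZnF4 libraries and 259.5 and 279.9 in wild type. Replicate 2 of each mutant had RNA of the Y-linked gene Ddx3y (20.4 RPKM in ZnF1 and 16.6 RPKM in ZnF4), and the other 4 libraries had 0, so sex differed within each mutant pair. Ikzf1 itself was present at 201 and 168 RPKM in ZnF1, 287 and 244 in ZnF4 and 176.5 and 178.6 in wild type. That value sums reads over a whole transcript, so it does not check the deleted finger. In sorted bulk RNA, fewer cells of a type and less RNA per cell cannot be told apart. The depth of the libraries is unknown, since the deposited values did not resolve into whole reads.

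Il9r has 2 transcript rows in the deposited table and is the only one of the 7 genes with more than 1. In the GENCODE annotation of GRCm38 the 2 transcripts have the same 9 coding exons and differ in coding sequence by 3 bases at the start of exon 6. The lengths in the deposited table, 3095 and 3092 bases, differ by the same 3. The coding strand around that splice junction is shown for both, with the 3 bases present in just the longer transcript in capitals:
Il9r longer transcript: gaggcctgggagCAGgcccggcacaaggac
Il9r shorter transcript: gaggcctgggaggcccggcacaaggac

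Promoter sequence is shown for Il9r, for its nearest neighbour Snrnp25 and for Nprl3, the gene that holds the globin enhancers. Each is 300 bases, from 250 before to 50 after the RefSeq start in GRCm38.p6, read on the strand of the gene. The files were mapped to another build, mm9, so these coordinates belong to the sequence and not to the RNA values. Il9r is at chr11:32200230-32200529 on the minus strand, Snrnp25 at chr11:32205165-32205464 on the plus strand and Nprl3 at chr11:32267658-32267957 on the minus strand. Capitals mark matches to GGGAA, the core motif of Ikaros binding (TTCCC on the other strand), and to AGATAA, a motif of GATA factors (TTATCT on the other strand). These motifs do not overlap each other in the sequences shown:
Il9r promoter: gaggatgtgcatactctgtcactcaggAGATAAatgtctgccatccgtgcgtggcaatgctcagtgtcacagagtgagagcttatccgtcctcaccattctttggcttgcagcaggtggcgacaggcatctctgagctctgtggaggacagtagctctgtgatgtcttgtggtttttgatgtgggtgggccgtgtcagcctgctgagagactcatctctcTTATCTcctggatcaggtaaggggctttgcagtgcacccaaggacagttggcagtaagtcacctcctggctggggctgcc
Snrnp25 promoter: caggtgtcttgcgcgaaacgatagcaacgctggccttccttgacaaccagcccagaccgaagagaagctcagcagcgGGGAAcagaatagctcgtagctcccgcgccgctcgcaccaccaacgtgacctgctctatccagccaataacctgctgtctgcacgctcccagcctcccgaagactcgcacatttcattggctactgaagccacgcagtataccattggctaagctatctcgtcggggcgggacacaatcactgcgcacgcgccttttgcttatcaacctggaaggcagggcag
Nprl3 promoter: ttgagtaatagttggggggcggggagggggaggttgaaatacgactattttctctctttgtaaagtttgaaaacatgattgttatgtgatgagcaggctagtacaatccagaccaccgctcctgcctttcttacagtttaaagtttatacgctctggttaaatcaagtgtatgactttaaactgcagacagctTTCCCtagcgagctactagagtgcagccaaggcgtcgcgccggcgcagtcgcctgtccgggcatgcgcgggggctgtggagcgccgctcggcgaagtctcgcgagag

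GGGAA or its complement was found in 2 of the 7 RefSeq promoters of these genes, those of Snrnp25 and Nprl3, against 62.7% of all 32851 mouse promoters of the same length. AGATAA or its complement was found in 1, that of Il9r, which held 2 matches; 11.2% of all promoters held one. In all, 6 of the 7 genes had a promoter in the table, and Nsg2 had a pair of them. A match is a description of letters in a window, and its absence says nothing about binding elsewhere at the locus.

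Il9r had the widest range of the 7 genes. It stood at 190.5 and 184.9 RPKM in the ZnF1 libraries, 43.0 and 80.8 RPKM in the ZnF4 libraries and 3.3 and 9.4 RPKM in wild type. The 3 genotypes did not overlap, and the ZnF1 libraries lay close together while the ZnF4 and the wild-type libraries were spread out. The means were 188 ± 3.96 RPKM in ZnF1, 61.9 ± 26.7 RPKM in ZnF4 and 6.35 ± 4.31 RPKM in wild type (SD, n = 2 each). The ratio of means was 29.6 for ZnF1 over wild type, 9.75 for ZnF4 over wild type and 3.03 for ZnF1 over ZnF4. On the log2(RPKM + 0.5) scale the differences were 4.94 for ZnF1 minus wild type, 3.28 for ZnF4 minus wild type and 1.66 for ZnF1 minus ZnF4, each with a standard error of 0.44. Among 22098 gene names Il9r ranked 154 and 148 by RPKM in the ZnF1 libraries, 1254 and 542 in the ZnF4 libraries and 8351 and 5925 in wild type.

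The shorter Il9r transcript followed the longer one at a low share. Its row held 13.9 and 11.3 RPKM in ZnF1, 3.0 and 6.2 RPKM in ZnF4 and 0.3 and 0.7 RPKM in wild type. As a share of the sum of both rows, it made up 6.80% and 5.76% in ZnF1, 6.52% and 7.13% in ZnF4 and 8.33% and 6.93% in wild type. The genotypes thus differed far more in total Il9r RNA than in this share. The wild-type shares rest on values close to the 0.1 RPKM rounding step, and how the authors divided reads between near-identical transcripts is not given in the sources used here.

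Snrnp25 encodes a protein of the minor spliceosome, which removes a rare class of introns. It is the first neighbour of Il9r on the globin side, transcribed in the opposite direction. Its level was 107.2 and 107.4 RPKM in ZnF1, 26.0 and 41.1 RPKM in ZnF4 and 18.6 and 24.3 RPKM in wild type. The ZnF1 libraries stood well above all others, and the lower ZnF4 library was only just above the higher wild-type library. The log2 difference was 2.31 for ZnF1 minus wild type, 0.61 for ZnF4 minus wild type and 1.70 for ZnF1 minus ZnF4, each with a standard error of 0.22.

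Rhbdf1 encodes iRhom1, a catalytically inactive relative of the rhomboid proteases that takes part in the maturation of the sheddase ADAM17. It is the next gene beyond Snrnp25. Its level was 19.5 and 19.4 RPKM in ZnF1, 6.2 and 12.3 RPKM in ZnF4 and 0.8 and 1.4 RPKM in wild type. The genotypes did not overlap, and their order was that of Il9r. The ratio of means was 17.7 for ZnF1 over wild type and 8.41 for ZnF4 over wild type. The log2 difference was 3.67 for ZnF1 minus wild type, 2.56 for ZnF4 minus wild type and 1.11 for ZnF1 minus ZnF4, each with a standard error of 0.31. ZnF4 lay nearer to ZnF1 than to wild type on this scale for Il9r and Rhbdf1, but nearer to wild type for Snrnp25.

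**Figure D1:**
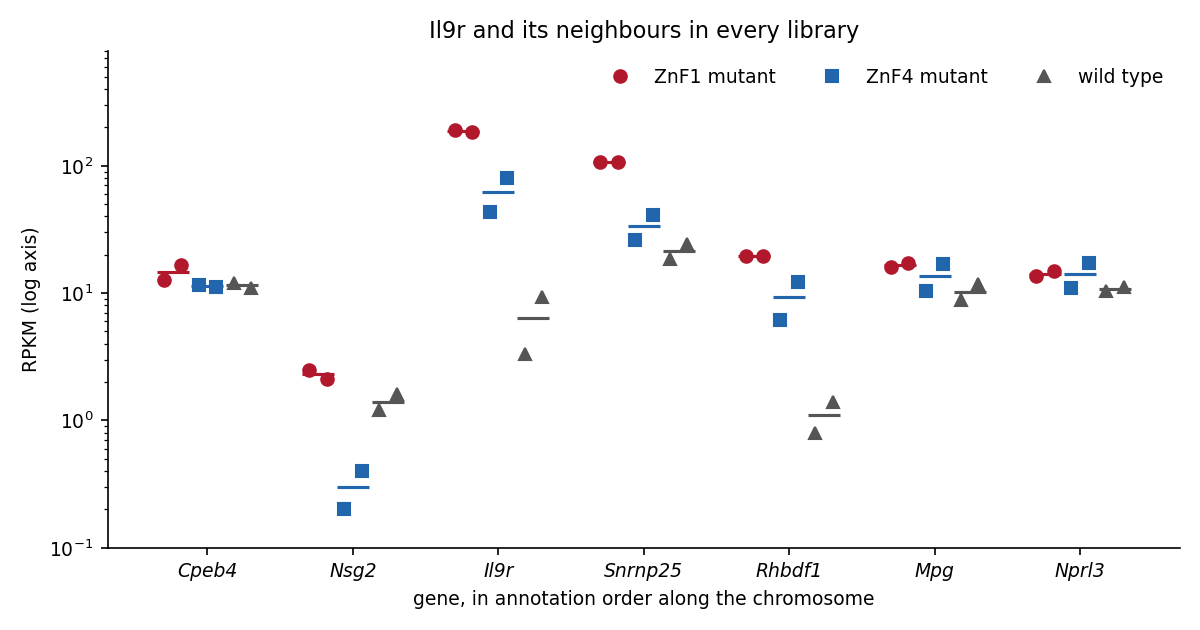
RPKM of the 7 genes in each of the 6 libraries on a log axis, in the order of the genes along the chromosome, with points for libraries and a line for the mean of each genotype (n = 2). Il9r, Snrnp25 and Rhbdf1 are highest in both ZnF1 libraries, while Mpg, Nprl3 and Cpeb4 stay between 8.8 and 17.3 RPKM in all 6 libraries.

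Differences from wild type were tested for the genes chosen by position. In the ZnF1 mutant, 0 of the 4 were called against wild type by limma at an adjusted p under 0.05, and 1 of the 4 had an unadjusted p below that value. The comparison called 0.271% of 10322 tested genes, 0.0969% as higher and 0.174% as lower. Its 28 calls became 512 without ZnF1 replicate 1, 7 without ZnF1 replicate 2 and 0 without any 1 of the other 4 libraries. All 7 genes had both ZnF1 libraries above both wild-type libraries, where 21.1% of tested genes did so and 20.3% had both ZnF1 libraries below. For the 3 genes chosen by level that direction was part of the choice.

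Against wild type in the ZnF4 mutant, limma also called 0 of the 4, with 1 at an unadjusted p below 0.05. It called 3.2% of tested genes, 1.78% as higher and 1.41% as lower. Its 330 calls became 0 without either ZnF4 library, 11 or 3 without a wild-type library, and 591 or 585 without a ZnF1 library. Only Il9r, Snrnp25 and Rhbdf1 had both ZnF4 libraries above both wild-type libraries, as 23.1% of tested genes did, and only Nsg2 had both below, as 27.2% did. Between the mutants, 1 of the 4, Nsg2, was called, in a comparison that called 4.78% of tested genes, 2.08% as higher in ZnF1 and 2.69% as lower. Its 493 calls became 0 or 2 without a ZnF4 library, 259 without either wild-type library and 814 without ZnF1 replicate 1. In 5 of the 7 genes both ZnF1 libraries lay above both ZnF4 libraries, as in 25.8% of tested genes, and in 0 of the 7 below, where 21% of tested genes lay. Il9r, Snrnp25 and Rhbdf1 are among the genes counted as higher here, and their level in these libraries was part of the choice. Of the 4 chosen by position, only Nsg2 and Cpeb4 had both ZnF1 libraries above both ZnF4 libraries. The comparisons share libraries, so they are not separate support for each other.

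Mpg encodes a DNA glycosylase that starts base excision repair of alkylated bases. Its level was 16.1 and 17.3 RPKM in ZnF1, 10.3 and 16.8 RPKM in ZnF4 and 8.8 and 11.7 RPKM in wild type. Both ZnF1 libraries were above wild type, while the ZnF4 libraries spanned most of the range of the other genotypes. The log2 difference for ZnF1 minus wild type was 0.69 (95% interval 0.14 to 1.25) with a limma adjusted p of 0.312. For ZnF4 minus wild type it was 0.36 (-0.20 to 0.91) with a limma adjusted p of 0.478, and for ZnF1 minus ZnF4 it was 0.33 (-0.22 to 0.89) with a limma adjusted p of 0.501.

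Nprl3, a subunit of the GATOR1 complex that restrains mTORC1 when amino acids are scarce, was at 13.6 and 14.8 RPKM in ZnF1, 11 and 17.3 RPKM in ZnF4 and 10.3 and 11.2 RPKM in wild type. Its log2 difference was 0.39 (-0.10 to 0.87, limma adjusted p = 0.536) for ZnF1 minus wild type. It was 0.35 (-0.14 to 0.83, limma adjusted p = 0.432) for ZnF4 minus wild type. Between the mutants it was 0.04 (-0.45 to 0.52, limma adjusted p = 0.944), so a difference of the size seen for Snrnp25 lies outside the interval. Mpg and Nprl3 overlap on opposite strands in the GENCODE annotation, and whether the reads kept their strand is not given in the sources used here, so reads of the overlap cannot be assigned to either gene.

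Nsg2, a neuronal vesicle protein, is the nearest measured gene on the other side of Il9r with RNA in these cells. It was low throughout, at 2.5 and 2.1 RPKM in ZnF1, 0.2 and 0.4 RPKM in ZnF4 and 1.2 and 1.6 RPKM in wild type. Its order therefore differed from that of the 3 genes above, with the ZnF4 libraries lowest. The log2 difference for ZnF1 minus ZnF4 was 1.82 (1.16 to 2.47) and was called, with a limma adjusted p of 0.0163. The difference from wild type was not called in either mutant, at 0.56 (-0.09 to 1.22, limma adjusted p = 0.502) for ZnF1. For ZnF4 it was -1.25 (-1.91 to -0.60, limma adjusted p = 0.0667). The call between the mutants was lost without either ZnF4 library, at limma adjusted p = 0.143 without replicate 1 and 0.0901 without replicate 2, and with no filter on low values, at 0.0850. The ZnF4 values are a few rounding steps above 0, so their log2 value is coarse.

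Cpeb4, a cytoplasmic polyadenylation element binding protein that controls translation through the poly(A) tail, was the most even of the 7. It stood at 12.6 and 16.7 RPKM in ZnF1, 11.6 and 11.2 RPKM in ZnF4 and 12 and 11 RPKM in wild type. The log2 difference was 0.32 (-0.05 to 0.70, limma adjusted p = 0.499) for ZnF1 minus wild type. It was -0.01 (-0.39 to 0.36, limma adjusted p = 0.984) for ZnF4 minus wild type and 0.34 (-0.04 to 0.71, limma adjusted p = 0.301) between the mutants.

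The 8 measured genes on each side of Il9r were then read in chromosome order. From the far side to the globin side they are Gpr75, Asb3, Chac2, Stc2, Bod1, Cpeb4, 4930524B15Rik and Nsg2, then Il9r, then Snrnp25, Rhbdf1, Mpg, Nprl3, Hba-x, Hba-a1, Hbq1b and Hba-a2. Of these 16 neighbours, 11 were tested, 5 were under the filter of a mean of 1 RPKM, and Gpr75, Stc2, 4930524B15Rik and Hba-x were listed at 0 in all 6 libraries. Leaving out Snrnp25 and Rhbdf1, limma called 0 of 9 in ZnF1 against wild type, 0 of 9 in ZnF4 against wild type and 1 of 9, Nsg2, between the mutants. Over all tested genes it called 0.271%, 3.2% and 4.78% in the same order. In each comparison 1 of the 9 had an unadjusted p under 0.05, where 11.9% of all tested genes did so in ZnF1 against wild type, 17.4% in ZnF4 against wild type and 20% between the mutants.

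Past Cpeb4 the genotypes lay close together. Bod1, which acts in chromosome biorientation, had 3.5 and 3.5 RPKM in ZnF1, 3.0 and 4.0 RPKM in ZnF4 and 3.4 and 3.6 RPKM in wild type, a log2 difference of 0.00 for ZnF1 and -0.01 for ZnF4 against wild type. Asb3, a SOCS box protein, had 7.5 and 6.0 RPKM in ZnF1, 6.2 and 7.4 RPKM in ZnF4 and 6.9 and 6.4 RPKM in wild type, with limma adjusted p of 0.989 and 0.959 against wild type. Chac2, an enzyme of glutathione breakdown, had 2.7 and 1.8 RPKM in ZnF1, 1.8 and 1.9 RPKM in ZnF4 and 2.2 and 2.1 RPKM in wild type. A further 8 genes on each side were looked at after the values were known, and 7 of them were tested. Limma called 0 of the 7 in any of the 3 comparisons, with log2 differences between -0.56 and 0.44. In a comparison 0 to 2 had an unadjusted p under 0.05. Over all tested genes limma called 0.271% to 4.78% in a comparison, and 11.9% to 20% had an unadjusted p under 0.05.

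The adult alpha globin genes, which lie beyond Nprl3, varied by library more than by genotype, and they are themselves part of the erythroid list. Hba-a1 was at 1.4 and 35.3 RPKM in ZnF1, 2.4 and 7.2 RPKM in ZnF4 and 2.3 and 2.6 RPKM in wild type. The high value was in ZnF1 replicate 2, the library with the largest erythroid marker sum. The log2 difference for ZnF1 minus wild type was 1.49 with a standard error of 1.17 and a limma adjusted p of 0.697. Il9r, Snrnp25 and Rhbdf1 had nearly equal values in the same pair of ZnF1 libraries. In the ZnF4 and the wild-type pair these genes and Hba-a1 were all higher in replicate 2. The part of erythroid cells in their values was not tested. The globin gene Hbq1b had 0.3 and 1.7 RPKM in ZnF1, 0.5 and 0.9 RPKM in ZnF4 and 0.2 and 0.2 RPKM in wild type, and was under the filter. Hba-a2 gave almost the same values as Hba-a1, and reads of these near-identical copies could not be separated with certainty.

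**Figure D2:**
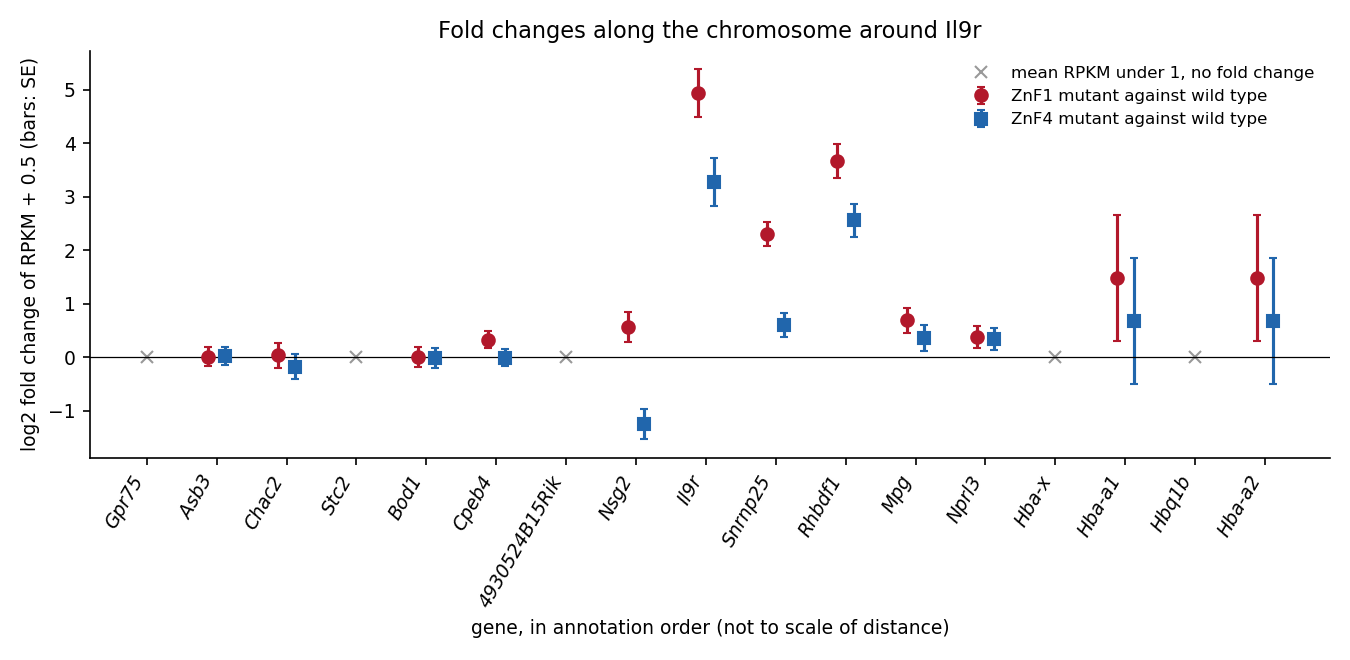
Log2 difference of RPKM + 0.5 for each mutant against wild type, with limma standard errors as bars, for the genes around Il9r in chromosome order and not to scale of distance; crosses mark genes under the filter, which have no fold change. Il9r, Snrnp25 and Rhbdf1 stand out at 4.94, 2.31 and 3.67 in ZnF1 minus wild type, while Asb3 and Bod1 lie at about 0; the globin genes carry wide bars.

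The difference between the replicates of a genotype was also described. It comes from the same RPKM values by which Il9r, Snrnp25 and Rhbdf1 were chosen, so it is not independent of that choice. In the ZnF1 pair, replicate 2 over replicate 1 gave a ratio of 0.971 for Il9r, 1.0 for Snrnp25, 0.995 for Rhbdf1, 1.07 for Mpg and 1.09 for Nprl3, all within the range from the 5th to the 95th percentile of tested genes. In the ZnF4 pair the ratios were 1.88 for Il9r, 1.58 for Snrnp25, 1.98 for Rhbdf1, 1.63 for Mpg and 1.57 for Nprl3. On the log2 scale these 5 differences were larger than those of 99.2%, 97.3%, 99.3%, 97.7% and 96.9% of tested genes, in that order. In the wild-type pair the ratios were 2.85 for Il9r, 1.31 for Snrnp25, 1.75 for Rhbdf1, 1.33 for Mpg and 1.09 for Nprl3, and these differences exceeded those of 99.8%, 91.9%, 96.4%, 92.5% and 69.5% of tested genes on the log2 scale.

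In 6 of the 7 genes, all but Cpeb4, replicate 2 was above replicate 1 in both the ZnF4 and the wild-type pair, as in 28% of tested genes. This pattern was noticed in the data and rests on 4 libraries and on genes that lie side by side, so it is a description with no test. In the ZnF4 pair all 5 genes from Il9r to Nprl3 lay above the 95th percentile of tested genes. In the wild-type pair Il9r and Rhbdf1 did, and in the ZnF1 pair 0 of the 5 did. In wild type Rhbdf1 was at only 0.8 and 1.4 RPKM and Il9r at 3.3 and 9.4 RPKM. The percentiles were taken over tested genes of every level, and low values have coarse log2 differences. The stretch of 5 was picked out in the same data. Nsg2 exceeded 86.8% of tested genes in the ZnF4 pair and 88.5% in the wild-type pair, and Cpeb4 33.6% and 29.6%. ZnF4 replicate 2 also had more erythroid marker RNA than ZnF4 replicate 1 and was male by Ddx3y where replicate 1 was not, and their part in the difference was not tested. In the wild-type pair replicate 2 was above replicate 1 in the granulocyte and monocyte sum (816 against 509 RPKM) and in the mast cell and basophil sum (6.8 against 4.3 RPKM) and below it in the plasma cell sum (349 against 944 RPKM), and their part was not tested either.

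**Figure D3:**
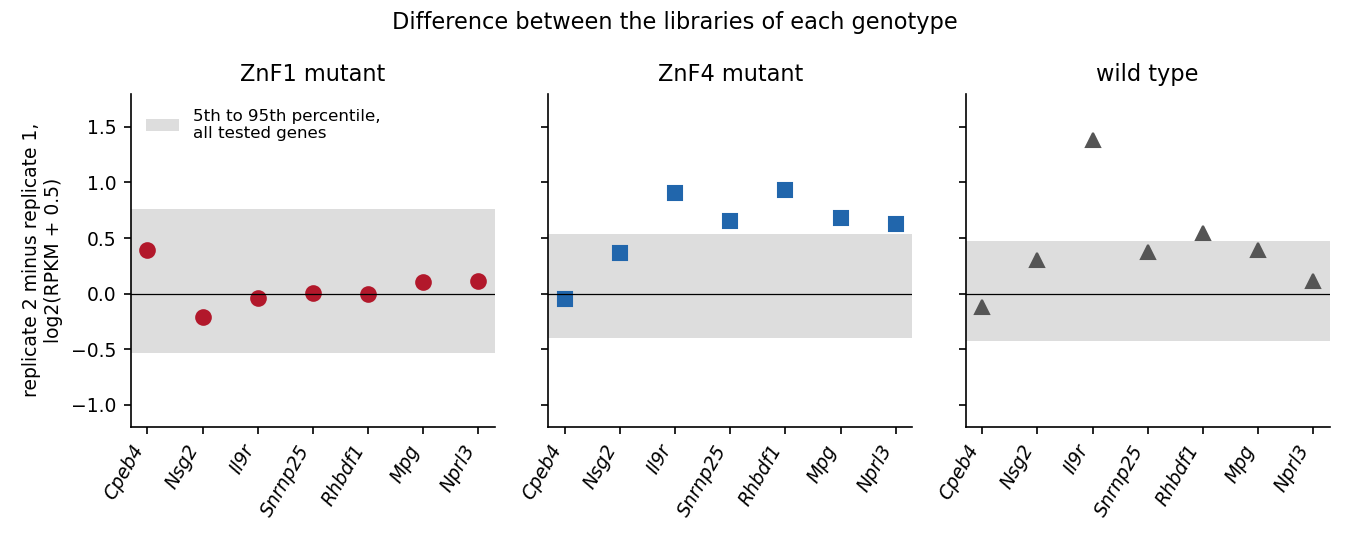
Log2 difference of replicate 2 minus replicate 1 for the 7 genes within each genotype, with the range from the 5th to the 95th percentile of all 10322 tested genes shaded. In ZnF4, Il9r at 0.90 and Rhbdf1 at 0.93 lie above the shaded range, which ends at 0.53, and in ZnF1 both lie near 0.

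Genes of the receptor pathway were set beside Il9r. Of 26 genes of the common gamma chain pathway, 23 were tested, or 22 without Il9r. Limma called 0 of 22 in ZnF1 against wild type, where it called 0.271% of all tested genes, and 2 of 22, Il2ra and Pim1, both lower, in ZnF4 against wild type, where it called 3.2%. Between the mutants it called 1 of 22, Pim1, higher in ZnF1, where it called 4.78%. An unadjusted p under 0.05 was found for 7 of 22 in ZnF1 and 7 of 22 in ZnF4 against wild type and for 9 of 22 between the mutants, against 11.9%, 17.4% and 20% of all tested genes in the same 3 comparisons. The median log2 difference of the 22 was 0.07 in ZnF1, -0.18 in ZnF4 and 0.35 between the mutants, against 0.00, -0.02 and 0.03 over all tested genes. The ligand gene Il9 was listed at 0 in all 6 libraries.

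Among receptors, Il2rg, the shared gamma chain, was abundant in every genotype, at 331 and 310 RPKM in ZnF1, 213 and 287 RPKM in ZnF4 and 229 and 208 RPKM in wild type. Its log2 difference was 0.55 in ZnF1 (limma adjusted p = 0.280) and 0.18 in ZnF4 (limma adjusted p = 0.656) against wild type. Expressed per length as RPKM, Il9r amounted to 57.6% and 59.7% of Il2rg in ZnF1, 20.1% and 28.1% in ZnF4 and 1.44% and 4.52% in wild type. Places by RPKM were taken among 9 receptor genes of the list: Il9r, Il2rg, Il4ra, Il21r, Il7r, Crlf2, Il2ra, Il15ra and Il2rb. Il9r had place 2 in both ZnF1 libraries, place 4 in both ZnF4 libraries and places 7 and 6 in wild type.

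Il2ra, the alpha chain of the IL-2 receptor, was lower in every mutant library than in wild type. It was at 5.8 and 3.3 RPKM in ZnF1, 2.2 and 1.5 RPKM in ZnF4 and 9.9 and 13.1 RPKM in wild type. It fell by 2.36 on the log2 scale in ZnF4 against wild type (limma adjusted p = 0.00832), and the log2 difference in ZnF1 was -1.28 (limma adjusted p = 0.152). The ZnF4 call was lost when any 1 ZnF4 or wild-type library was left out, at limma adjusted p between 0.0719 and 0.148, and with no filter on low values, at 0.135.

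Jak1, a kinase that binds the IL-9 receptor chain, was at 146 and 123 RPKM in ZnF1, 88.0 and 105 RPKM in ZnF4 and 142 and 103 RPKM in wild type. Jak3, the kinase that binds the common gamma chain, was at 26.5 and 27.1 RPKM in ZnF1, 18.4 and 26.0 RPKM in ZnF4 and 14.4 and 13.1 RPKM in wild type. All 4 mutant libraries were above wild type for Jak3, with log2 differences of 0.94 in ZnF1 (0.54 to 1.34, limma adjusted p = 0.1003) and 0.65 in ZnF4 (0.25 to 1.06, limma adjusted p = 0.103), neither of which was called. The kinase gene Pim1, a common STAT target, was at 38.6 and 35.4 RPKM in ZnF1, 25.1 and 25.1 RPKM in ZnF4 and 40.9 and 37.8 RPKM in wild type. It fell by 0.64 on the log2 scale in ZnF4 against wild type (limma adjusted p = 0.0347), and it was higher in ZnF1 than in ZnF4 by 0.55 (limma adjusted p = 0.0414). The fall in ZnF4 was not called when any 1 ZnF4 or wild-type library was left out, at limma adjusted p between 0.175 and 0.228, with no filter on low values, at 0.0615, or with a term for sex, at 0.102. The difference between the mutants was not called with any library left out, at limma adjusted p between 0.0828 and 0.189, with no filter on low values, at 0.0747, with a term for sex, at 0.0553, or in a fit of the mutants alone, at 0.0926.

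**Figure D4:**
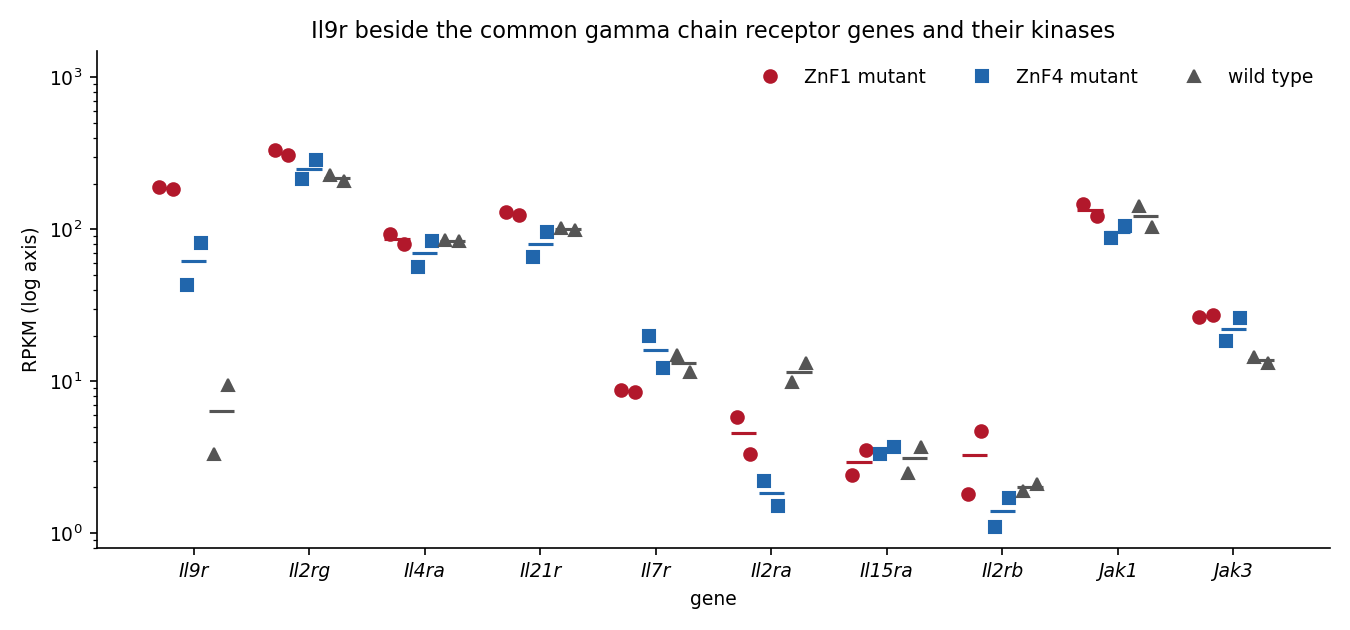
RPKM of Il9r, other receptor genes of the common gamma chain family and the kinase genes Jak1 and Jak3 in the 6 libraries on a log axis, with points for libraries and a line for the mean of each genotype (n = 2). Il9r runs between 3.3 and 190.5 RPKM, whereas its partner chain Il2rg stays between 208 and 331 RPKM.

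The other 6 lists hold the pathways of the 6 neighbours, with 67 genes, of which 60 were tested and 58 remained without Snrnp25 and Rhbdf1. Limma called 0 of 58 in ZnF1 against wild type (0.271% of all tested genes), 0 of 58 in ZnF4 against wild type (3.2%) and 1 of 58, Nsg2 itself, between the mutants (4.78%). An unadjusted p under 0.05 was found for 6, 9 and 10 of the 58 in these comparisons, against 11.9%, 17.4% and 20% of all tested genes. Median log2 differences of the 5 lists with several tested genes lay between -0.12 and 0.09 in ZnF1 and between -0.14 and -0.02 in ZnF4.

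In the minor spliceosome, limma called 0 of the 9 tested partners of Snrnp25 in each comparison, and 0 had an unadjusted p under 0.05. Over all tested genes it called 0.271% in ZnF1 against wild type, 3.2% in ZnF4 against wild type and 4.78% between the mutants. The shares at an unadjusted limma p under 0.05 were 11.9%, 17.4% and 20%. The called counts of 0 lie near the called shares. Scnm1 was at 26.2 and 22.9 RPKM in ZnF1, 23.9 and 28.7 RPKM in ZnF4 and 27.8 and 34.6 RPKM in wild type, and Zmat5, a further protein of the same particle, at 25.0 and 18.2 RPKM in ZnF1, 18.0 and 22.6 RPKM in ZnF4 and 24.5 and 23.3 RPKM in wild type. In the iRhom pathway, Rhbdf2, the paralogue of Rhbdf1 and the main iRhom of blood cells, was at 63.3 and 61.3 RPKM in ZnF1, 63.7 and 53.8 RPKM in ZnF4 and 38.8 and 47.5 RPKM in wild type. Its log2 difference was 0.53 in ZnF1 (limma adjusted p = 0.224) and 0.44 in ZnF4 (limma adjusted p = 0.174) against wild type. Even in the ZnF1 libraries Rhbdf1, at 19.5 and 19.4 RPKM, stayed below Rhbdf2.

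In base excision repair, beside Mpg, the strand-break sensor Parp1 was at 157 and 137 RPKM in ZnF1, 134 and 132 RPKM in ZnF4 and 166 and 154 RPKM in wild type. The scaffold gene Xrcc1 was at 47.8 and 49.8 RPKM in ZnF1, 30.6 and 35.8 RPKM in ZnF4 and 43.3 and 57.5 RPKM in wild type. In the GATOR complexes, Nprl2, the partner of Nprl3, was at 25.9 and 25.5 RPKM in ZnF1, 20.4 and 22.8 RPKM in ZnF4 and 26.3 and 25.1 RPKM in wild type. Sec13, a GATOR2 subunit shared with other complexes, was at 53.4 and 47.7 RPKM in ZnF1, 48.0 and 59.6 RPKM in ZnF4 and 59.5 and 58.1 RPKM in wild type. Among partners of Cpeb4, the poly(A) binding protein gene Pabpc1 was at 107 and 101 RPKM in ZnF1, 74.8 and 67.0 RPKM in ZnF4 and 101 and 107 RPKM in wild type. Cnot1, the scaffold of the CCR4-NOT deadenylase, was at 52.6 and 55.4 RPKM in ZnF1, 50.2 and 55.2 RPKM in ZnF4 and 55.0 and 49.6 RPKM in wild type. In the family of Nsg2, Nsg1 stayed under the filter, at 0.5 and 0.7 RPKM in ZnF1, 0.7 and 0.8 RPKM in ZnF4 and 0.5 and 0.7 RPKM in wild type, and Caly was listed at 0 in all libraries.

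Likeness to Il9r was measured as Pearson's r of the log2 values over the 6 libraries. Among the genes of the locus it was 0.99 for Rhbdf1, 0.90 for Snrnp25, 0.87 for Mpg, 0.75 for Nprl3, 0.53 for Cpeb4 and 0.15 for Nsg2. The value carries the genotype means as well as the spread within genotypes. Rhbdf1 and Snrnp25 were chosen with Il9r for their level in these same libraries, so a high value for them was part of the choice. The range asked of the other genes below was not asked of the genes of the locus, so the sets are not alike. Over 459 other genes with a range of at least 2 log2 units, the most like were Serpina3g (0.94), Marveld1 (0.94), Klk8 (0.91), Cd4 (0.89), Prtn3 (0.89) and Mcpt8 (0.87). The points share libraries and 3 genotypes, so these values are a description.

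Serpina3g, a serine protease inhibitor, was at 38.1 and 45.6 RPKM in ZnF1, 16 and 27.6 RPKM in ZnF4 and 9.7 and 7.9 RPKM in wild type, and it belongs to a multigene cluster whose reads may be shared. Cd4, the T cell co-receptor, was at 4.2 and 4.5 RPKM in ZnF1, 1.1 and 1.4 RPKM in ZnF4 and 0.6 and 0.9 RPKM in wild type. Marveld1, a membrane protein gene, was at 2.9 and 5.0 RPKM in ZnF1, 1.7 and 2.2 RPKM in ZnF4 and 0.7 and 0.7 RPKM in wild type. Klk8, a secreted protease gene, was at 1.8 and 2.2 RPKM in ZnF1, 0.8 and 2.6 RPKM in ZnF4 and 0.2 and 0.1 RPKM in wild type. The neutrophil precursor marker Prtn3 was at 9.2 and 44.5 RPKM in ZnF1, 9.3 and 10.9 in ZnF4 and 1.4 and 3.4 in wild type. The basophil marker Mcpt8 was at 5.3 and 37.3 RPKM in ZnF1, 5.7 and 9.5 in ZnF4 and 0.8 and 1.1 in wild type. Both were higher in replicate 2 of every genotype, as Il9r was in ZnF4 and wild type but not in ZnF1.

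Markers of cells in which IL-9 receptors are well known were read beside Il9r. The 15 mast cell and basophil markers summed to 19.6 and 124 RPKM in ZnF1, 29.4 and 38.4 RPKM in ZnF4 and 4.3 and 6.8 RPKM in wild type. Among them the mast cell protease genes Mcpt1, Mcpt2, Mcpt4, Cma1 and Tpsab1 were at 0 in every library. Prss34, Cpa3, Mcpt8, Hdc, Ms4a2, Gata2 and Il1rl1 were higher in every mutant library than in both wild-type libraries. The other genes of the list, Kit, Fcer1a and Tpsb2, were not. Prss34 had at least 7.7 RPKM in each mutant library and at most 2.3 RPKM in wild type. Cpa3 had at least 0.6 RPKM in each mutant library and at most 0.1 RPKM in wild type. Kit was at 0.6 and 3.1 RPKM in ZnF1, 6.0 and 6.6 RPKM in ZnF4 and 0.3 and 0.7 RPKM in wild type. Every mutant library was above wild type in the mast cell and basophil sum, and ZnF1 replicate 1 was below both ZnF4 libraries. The granulocyte and monocyte sums given above were likewise higher in each mutant library than in wild type and lower in ZnF1 replicate 1 than in either ZnF4 library. The part of these cells in the Il9r values of either mutant was not tested. The 16 T and NK cell markers summed to 37.0 and 46.6 RPKM in ZnF1, 34.0 and 36.7 RPKM in ZnF4 and 33.1 and 42.6 RPKM in wild type. That sum mixes members that moved in different directions. Cd8a, Cd8b1, Cd3d and Cd3g were low but higher in both ZnF1 libraries than in all others. Cd8a had 1.2 and 1.5 RPKM in ZnF1 and at most 0.2 RPKM elsewhere. Lck and Cd247, the highest of the list, were lower in both ZnF1 libraries than in wild type. The part of T cells in the Il9r values was not tested either. The 10 plasma cell markers summed to 329 and 286 RPKM in ZnF1, 462 and 495 RPKM in ZnF4 and 944 and 349 RPKM in wild type.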

How the data were processed

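Poly(A)-enriched RNA of sorted IgM+ bone marrow B cells was sequenced by the submitters in 6 libraries, 2 per genotype. The authors deposited a table of RPKM for 26531 RefSeq transcripts with values, rounded to 0.1. Mapping was to mm9, and TopHat and bedtools are named, per the submitters' processing notes; the versions, the strand and the read total used for scaling are not given in the sources used here. Of transcripts under 150 bases, at most 28.4% of values came out as whole reads (within 0.1 read), so counts were not recovered, and the depth and its counting error are unknown.

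The highest-mean row stood for a gene name, and names with a mean of at least 1 RPKM were tested (10322 of 22098, all 7 genes described among them). All 6 libraries were fitted on log2(RPKM + 0.5), which understates changes of low genes, with 1 coefficient per genotype (limma 3.58.1, R 4.3.3, lmFit and eBayes with trend). Tests are two-sided, with Benjamini-Hochberg adjustment over all tested genes, and calls were made below an adjusted p of 0.05. The fit was tested on simulated data.

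The genes and lists were chosen with earlier results of these data known. Genes named were the 7, the 8 measured genes on each side, called members of each list with up to 2 others of largest mean RPKM, and the 6 most like Il9r among genes with a range of at least 2 log2 units; Ikzf1, Ddx3y, Cd79b, Il9 and Jak3 were added after their values were seen. Of the genes the rule took, 1 is not reported here. Of 20 erythroid and 20 granulocyte and monocyte markers, 18 and 19 had a row. Sequences are from RefSeq (GRCm38.p6) and GENCODE (GRCm38), and neighbours were ordered by the same annotation. Alternatives were pseudocounts of 0.1 and 1, no filter or a filter at 3 RPKM, quantile normalization, summed rows, a replicate block, a sex term, fits of 2 genotypes and leaving out each library.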

Additional observations from a re-analysis of the deposited data

Results flagged for a closer look

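The direct limma comparison of the mutants called Nsg2, with a log2 difference of 1.82 for ZnF1 minus ZnF4 (limma adjusted p = 0.0163), and Pim1, with 0.55 (limma adjusted p = 0.0414). They are among 85 tested neighbours and list genes, and the comparison called 4.78% of all tested genes. The Nsg2 call was lost without either ZnF4 library, and the Pim1 call was lost with any library left out. For 4 further genes of the lists, both ZnF1 libraries lay on one side of wild type and both ZnF4 libraries on the other, and the direct limma comparison did not call them. With Nsg2, that makes 5 of 85 tested neighbours and list genes on opposite sides of wild type, against 6.5% of all tested genes. These were the IL-21 receptor gene Il21r (0.68, limma adjusted p = 0.0831), Stat3 (0.39, limma adjusted p = 0.154), the DNA ligase gene Lig3 (-0.18, limma adjusted p = 0.483) and the deadenylase gene Cnot8 (0.28, limma adjusted p = 0.275).

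Il21r was at 129.5 and 125.2 RPKM in ZnF1, 65.8 and 95.6 RPKM in ZnF4 and 102.4 and 99.3 RPKM in wild type. The shorter Il9r transcript was outside the comparisons and had a mean of 12.6 RPKM in ZnF1, against 4.6 RPKM in ZnF4 and 0.5 RPKM in wild type. With 2 libraries a genotype, no single value was tested as an outlier within its group.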

How the results depend on the processing

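The Il9r log2 differences kept their direction under all alternatives, at 4.25 to 5.63 for ZnF1 minus wild type, 2.59 to 3.97 for ZnF4 minus wild type and 1.21 to 2.11 for ZnF1 minus ZnF4 when a library was left out, and within those limits otherwise. Among 135 such values of Il9r, Snrnp25 and Rhbdf1, 0 reversed. The libraries of the genotypes did not overlap for these genes, so leaving out a library could not reverse a difference. With 2 libraries a genotype, leaving out a library moves a mean by a fixed part of the replicate difference. Snrnp25 became 2.12 (ZnF1 minus wild type, without WT replicate 1) and 1.37 (ZnF1 minus ZnF4, without ZnF4 replicate 1), and Rhbdf1 in ZnF1 minus wild type 4.07 and 3.30 with pseudocounts of 0.1 and 1.

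Counts of called genes moved far more; the cause was not tested. For ZnF1 against wild type 28 genes became 104 with no filter, 13 with quantile normalization, 0 with a sex term (863 at an unadjusted p under 0.05) and 0 in a fit of those 2 genotypes (1053 at an unadjusted p under 0.05), and 0 to 512 without a library. For ZnF4 against wild type 330 became 171 with a sex term, 594 in a fit of those 2 genotypes and 0 to 591 without a library. Between the mutants 493 became 327 with no filter, 249 in a fit of those 2 genotypes and 0 to 814 without a library.

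The replicate differences correlated at 0.28 (ZnF1 and wild type), -0.03 (ZnF4 and wild type) and 0.21 (the mutants) across genes. These values do not settle whether the replicate numbers pair the libraries, since sex and marker sums also differed within pairs. A replicate block gave 27, 327 and 529 calls and changed no call among Mpg, Nprl3, Nsg2 and Cpeb4. With it the standard error of the Il9r log2 differences went from 0.44 to 0.30.

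Of 177 values of Mpg, Nprl3, Nsg2 and Cpeb4, 165 kept their sign and their call, though not their size. Small differences reversed when a library was left out: Cpeb4 in ZnF4 against wild type ran between -0.071 and 0.049 (0.013 without ZnF4 replicate 2, 0.049 without WT replicate 1). Mpg between the mutants ran between -0.0092 (without ZnF4 replicate 1) and 0.67, and Nprl3 between -0.28 (without ZnF4 replicate 1) and 0.35, with -0.021 without ZnF1 replicate 2. Nsg2 in ZnF4 against wild type became called with quantile normalization (-1.40, limma adjusted p = 0.0484), in a fit of those 2 genotypes (0.0367) and without ZnF1 replicate 1 (0.0333) or 2 (0.0325). Il2ra became called in ZnF1 against wild type without ZnF1 replicate 1 (limma adjusted p = 0.0135), and between the mutants with a sex term (0.0365) or without ZnF1 replicate 2 (0.0328). The filter at 3 RPKM removed Nsg2. Unknown depth and the 0.1 RPKM rounding step limit values near 0.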
